A study of Homo sapiens with 4 samples.

Results

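The immediate early transcription factors of the AP-1 family (FOS, FOSB, FOSL1, FOSL2, JUN, JUNB and JUND), the zinc finger factor EGR1, the early response gene IER3 and the growth regulator MYC were followed across a KLF7 knockdown. They form a named list of 10 genes, each taken by its single gene symbol on the array, and all 10 were found among the 18417 genes measured. The series holds 4 whole-transcript arrays of total RNA from the human cell line HCE, which the labels call undifferentiated and whose series title places it in work on the corneal epithelium. Cells, 100000 per well, received 20 nM of a non-targeting siRNA pool (scramble control, 2 arrays) or of an siRNA pool against the zinc finger factor KLF7 (siKLF7, 2 arrays), and were collected after 48 hours. All 4 samples were transfected, and no untransfected sample was compared. Each group rests on 1 line and 1 siRNA pool, and no label states that its 2 samples were grown as separate cultures, and p-values therefore reflect nothing beyond the variation among these particular samples, possibly technical.

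Immediate early genes are transcribed within minutes of a growth factor, wound or stress signal, without new protein synthesis, because the factors that switch them on are already present and are activated by ERK, JNK and p38 kinases. Proteins of the FOS family pair with JUN proteins to form AP-1, which binds short palindromic sites beside genes of migration, matrix breakdown, cytokines and epidermal differentiation. EGR1 binds GC-rich sites, and MYC, paired with MAX, drives genes of growth and ribosome production. In stratified epithelia these factors are known for their part in wound responses and in the balance of proliferation and differentiation. All samples here were taken 48 hours after transfection, and the labels name no acute stimulus before collection.

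Promoters are shown for EGR1 and JUN, which lay above both controls in the siKLF7 arrays. They are also shown for JUND, which lay below, and for FOS, whose groups overlapped. SRF, serum response factor, and ELK1, both described below, bind the CArG box and a site beside it. Of the windows shown, only that of EGR1 held a CArG box. The RefSeq table used here (build GRCh38.p14) held 7 of the 10 members, namely FOS, FOSB, FOSL2, JUN, JUNB, JUND and EGR1. For 4 of them the 250 bases before the transcription start are printed 5′ to 3′ in the direction of the gene. The EGR1 window is chr5:138465229-138465478 on the plus strand, the JUN window chr1:58784048-58784297 on the minus strand, the JUND window chr19:18281623-18281872 on the minus strand and the FOS window chr14:75278578-75278827 on the plus strand. Capitals mark matches on either strand to the CArG box, which binds serum response factor, and to TGACGT, which is part of the cyclic AMP response element; overlapping matches run together.
EGR1: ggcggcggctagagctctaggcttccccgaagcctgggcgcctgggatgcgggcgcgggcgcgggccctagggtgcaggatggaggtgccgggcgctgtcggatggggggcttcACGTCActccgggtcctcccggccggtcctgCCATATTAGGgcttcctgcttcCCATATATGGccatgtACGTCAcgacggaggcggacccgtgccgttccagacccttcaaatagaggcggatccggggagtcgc
JUN: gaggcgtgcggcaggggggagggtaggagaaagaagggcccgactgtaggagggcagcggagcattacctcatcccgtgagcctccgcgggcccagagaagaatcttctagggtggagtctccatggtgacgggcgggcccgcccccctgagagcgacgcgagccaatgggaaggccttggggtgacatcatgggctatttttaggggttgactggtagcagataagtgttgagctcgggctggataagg
JUND: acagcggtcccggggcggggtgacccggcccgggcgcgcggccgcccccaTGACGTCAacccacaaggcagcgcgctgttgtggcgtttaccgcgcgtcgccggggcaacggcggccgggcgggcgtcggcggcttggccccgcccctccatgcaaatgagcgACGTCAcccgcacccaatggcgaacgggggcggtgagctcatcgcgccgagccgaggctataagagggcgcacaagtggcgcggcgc
FOS: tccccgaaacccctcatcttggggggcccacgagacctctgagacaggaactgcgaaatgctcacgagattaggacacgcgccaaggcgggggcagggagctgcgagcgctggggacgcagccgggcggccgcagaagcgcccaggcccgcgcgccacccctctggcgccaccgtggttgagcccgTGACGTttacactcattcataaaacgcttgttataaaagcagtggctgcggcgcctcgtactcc

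EGR1 held 2 CArG boxes in this window and 2 matches to TGACGT. A CArG box stood in 1.14% of the 27305 promoter windows of the same length, and in 1 of the 7 member windows. TGACGT stood in 7.42% of all windows and in 5 of the 7, with 1 match in FOS, 3 in JUND and 0 in JUN and JUNB. The AP-1 site TGANTCA stood in 6.6% of all windows and in 0 of the 7. GGGCGG, a GC box, stood in 42.3% of all windows and in 5 of 7, and CACCC, a short motif of the kind Kruppel-like factors bind, in 53.7% and in 7 of 7. A match describes letters, and absence says only that these letters are not in the 250 bases.

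Scramble control replicate 1 stood apart from the other arrays. Across genes, scramble control replicate 1 had r = 0.934 to 0.938 with the rest, while the others correlated with each other at 0.99 to 0.994. KRT5 and KRT14, keratins of stratified epithelium, were bright in all 4 arrays (signals of 8379 to 13575), but the corneal keratin KRT12 stood at 67.7 in scramble control replicate 1 against 1570 to 3136 elsewhere, and KRT3 was listed at 0.0055 there against 1440 to 2461. Summed over the 9 of 11 epithelial markers matched, the signal was 39288 and 46590 in the controls and 48584 and 51271 in the siKLF7 arrays; over 11 fibroblast and keratocyte markers it was 4426 and 2534 against 3039 and 2910. Summed signals of the vascular, leukocyte and melanocyte markers (15 of 17 matched) were 1480, 2449 and 400 in scramble control replicate 1 and 331 to 2145 in the other arrays. Some of these markers also passed with 3 arrays: KRT12 rose by 0.81, KRT3 by 0.57, and the fibroblast and keratocyte markers POSTN by 0.86 and LUM by 0.64. No other matched marker passed in either direction. Of the 11 fibroblast and keratocyte markers, 1 lay above and 7 below both controls, where 16.3% and 28.9% of all genes did. Their median difference was -0.13 with 3 arrays, so POSTN and LUM went against most of their list. POSTN stood at 678 and 25.4 in the controls and 77.4 and 44.1 in the siKLF7 arrays, and at -1.18 with 4 arrays. LUM was dim, with signals of 25.1 to 63.5. KLF7 itself stood at signals of 4649 and 2911 in the controls and 1492 and 1122 in the siKLF7 arrays. The groups did not overlap, as for 45.2% of all genes. In log2 units KLF7 differed by -1.50 (SE 0.28) with 4 arrays and by -1.16 with 3. With 4 arrays limma's adjusted p over all genes was 0.639, so even the knocked-down gene did not pass. Values are therefore given with 4 arrays and with 3, leaving out scramble control replicate 1, and the part of these marker levels in each result, with either number of arrays, was not tested.

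MYC was lower in both siKLF7 arrays than in both controls. Its signal was 3775 and 3789.5 in scramble control replicates 1 and 2, and 3017 and 2779 in siKLF7 replicates 1 and 2. The control arrays nearly coincided, and both siKLF7 arrays lay below them. The control mean was 3782 ± 10.1 (SD, n = 2), and the siKLF7 mean, 2898 ± 168 (SD, n = 2), was 76.6% of it. On the log2(signal + 16) scale, which is used for all differences below and slightly understates those of dim genes, the difference was -0.38 (SE 0.11) with 4 arrays, and limma's adjusted p over all genes was 0.639. By exact permutation (two-sided) p was 0.33, which no comparison of 2 arrays with 2 can go below. With 3 arrays MYC fell by 0.39 on the log2 scale (SE 0.10) and passed. Against scramble control replicate 1 alone, the array that stood apart, it was lower by 0.38 (SE 0.10). These fits with a lone control share the siKLF7 arrays, and the lone control is assumed to vary like them. The 3-array call was lost when the prior spread was not allowed to follow intensity (adjusted p = 0.33). In bulk RNA, fewer cells of a type and less RNA per cell cannot be told apart.

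**Figure D1:**
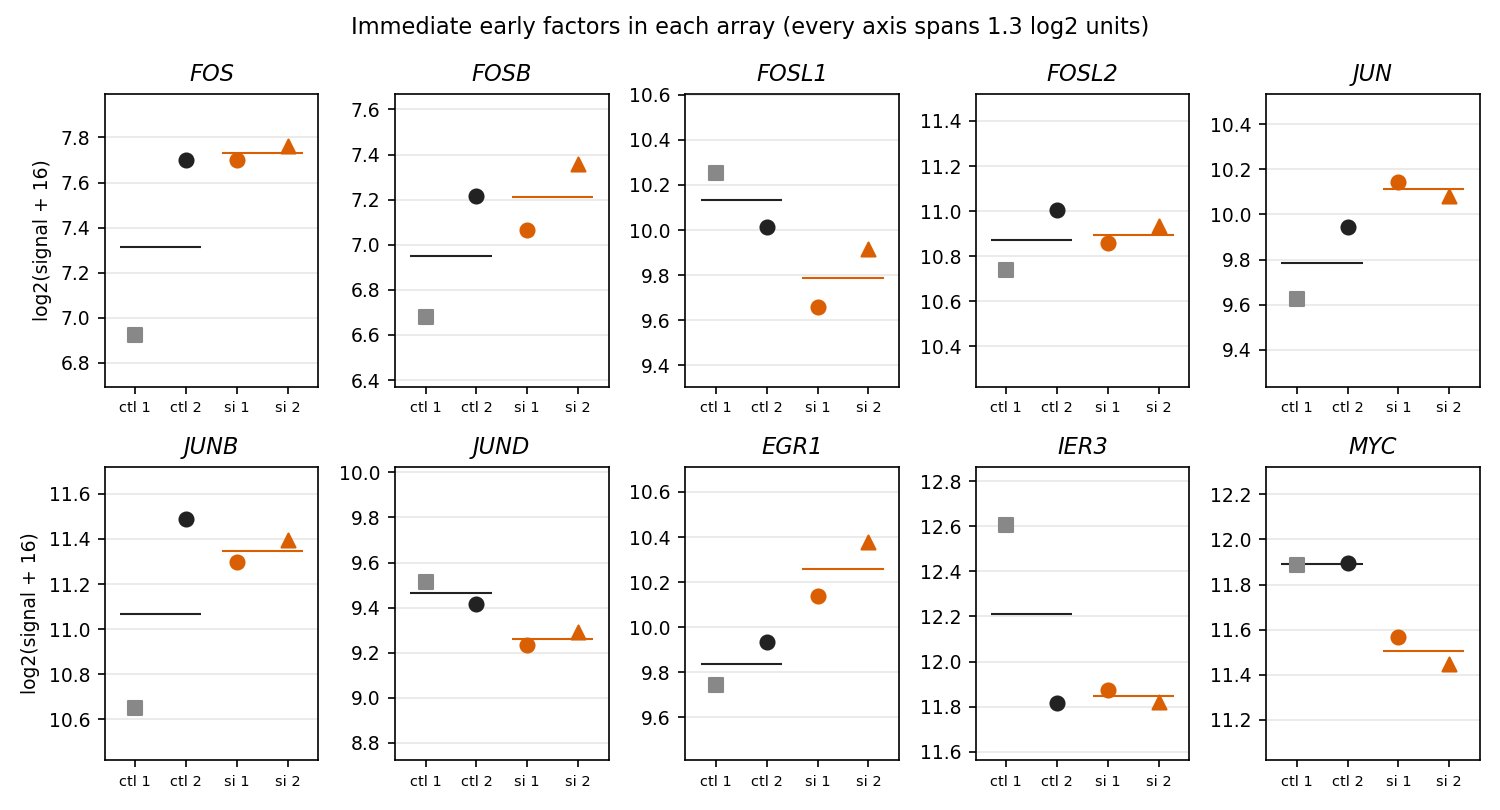
Level of each immediate early factor as log2(signal + 16) in scramble control replicates 1 (grey square) and 2 (black circle) and siKLF7 replicates 1 (orange circle) and 2 (orange triangle); lines are group means and every vertical axis spans the same range. MYC, FOSL1 and JUND lie below both controls and EGR1 and JUN above both, while FOS, FOSB, JUNB and IER3 have 1 control far from the remaining arrays.

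Of the 10 members, MYC was the only one that passed with 3 arrays (1 of 10), where 1.57% of all genes passed in either direction, 0.885% rising and 0.69% falling. With 4 arrays 0 members passed in limma, as 0 of all genes did (0%); MYC was the 1 member with an unadjusted p under 0.05, which 5.8% of all genes had. When scramble control replicate 2 was left out instead, 8 of the 10 members passed, EGR1, FOS, FOSB, JUN and JUNB higher and FOSL1, IER3 and MYC lower, but so did 26.8% of all genes. FOSL2 and JUND did not pass in any of these fits. The siKLF7 groups lay apart from the controls for 5 members, 2 above and 3 below, where 45.2% of all genes did so, 16.3% above and 28.9% below. The median difference of the members was 0.14 with 4 arrays and -0.06 with 3, beside -0.05 and -0.04 over all genes.

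EGR1, a zinc finger factor induced by serum and injury, was higher in both siKLF7 arrays. Its signal was 841 and 962 in the controls and 1111 and 1314 in the siKLF7 arrays, so the lower siKLF7 array exceeded the higher control. The control mean was 902 ± 85.6 (SD, n = 2), and the siKLF7 mean was 1213 ± 144 (SD, n = 2). The difference was 0.42 (SE 0.16) with 4 arrays and 0.32 (SE 0.15) with 3, with limma's adjusted p at 0.639 and 0.36, and neither passed. The 95% interval, before adjustment over genes, was -0.0047 to 0.84 with 4 arrays, which includes 0. With 3 arrays it was 0.03 to 0.61, but that interval rests on a lone control. The gap between the siKLF7 arrays was 0.24 and that between the controls 0.19, each smaller than the difference of the means.

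JUN, the main partner of FOS proteins in AP-1, followed the same order. Its signal was 775 and 969 in the controls and 1117 and 1069 in the siKLF7 arrays. The difference was 0.33 (SE 0.17) with 4 arrays and 0.17 (SE 0.15) with 3, and limma's adjusted p was 0.639 and 0.68. The controls differed from each other by 0.32, close to the difference between the groups. JUNB, a JUN protein that is a weaker activator in growth control, stood at 1591 and 2856 in the controls and 2498 and 2679 in the siKLF7 arrays. Both siKLF7 values lay between the controls, so the sign of the difference depended on the control array: 0.28 (SE 0.30) with 4 arrays and -0.14 (SE 0.11) with 3. JUND, which is less dependent on stimulation than the other JUN genes, stood at 714 and 668 in the controls and 587 and 610.3 in the siKLF7 arrays. It was lower by 0.20 (SE 0.13) with 4 arrays and by 0.15 (SE 0.16) with 3, and did not pass, although the groups did not overlap.

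The FOS genes did not share a direction. FOSL1, the FRA1 protein gene and an AP-1 subunit of migrating epithelial cells, stood at 1203 and 1019 in the controls and 793 and 949.7 in the siKLF7 arrays. Both siKLF7 values were below both controls, with siKLF7 replicate 2 within 0.10 of scramble control replicate 2. The difference was -0.35 (SE 0.17) with 4 arrays and -0.23 (SE 0.15) with 3, and limma's adjusted p was 0.639 and 0.59. FOSL2, which encodes FRA2, stood at 1692 and 2039.6 in the controls and 1839 and 1942 in the siKLF7 arrays, both between the controls. Its difference was 0.02 (SE 0.15) with 4 arrays and -0.11 (SE 0.12) with 3.

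FOS and FOSB are the members induced most sharply after a stimulus, and both were dim here. FOS stood at 106 and 192 in the controls and 192 and 201 in the siKLF7 arrays. Scramble control replicate 1 alone was low, and the other values nearly coincided. The difference was 0.42 (SE 0.28) with 4 arrays and 0.03 (SE 0.16) with 3, where the 95% interval ran from -0.29 to 0.35. FOSB stood at 86.6 and 133 in the controls and 118 and 148 in the siKLF7 arrays, with a difference of 0.26 (SE 0.23) with 4 arrays and -0.005 (SE 0.16) with 3. Here too scramble control replicate 1 was the lowest array.

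IER3, which encodes a stress- and NF-kB-induced regulator of cell survival and ERK signalling, showed the reverse pattern. Its signal was 6224 and 3595 in the controls and 3734.5 and 3596 in the siKLF7 arrays, so only scramble control replicate 1 was high. The difference was -0.37 (SE 0.28) with 4 arrays and 0.03 (SE 0.10) with 3, where the 95% interval ran from -0.17 to 0.22. The array carries 3 probe sets for IER3, and the other two gave values identical to each other and a difference of -0.33 with 4 arrays and 0.04 with 3. The rest of the members have 1 probe set each.

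**Figure D2:**
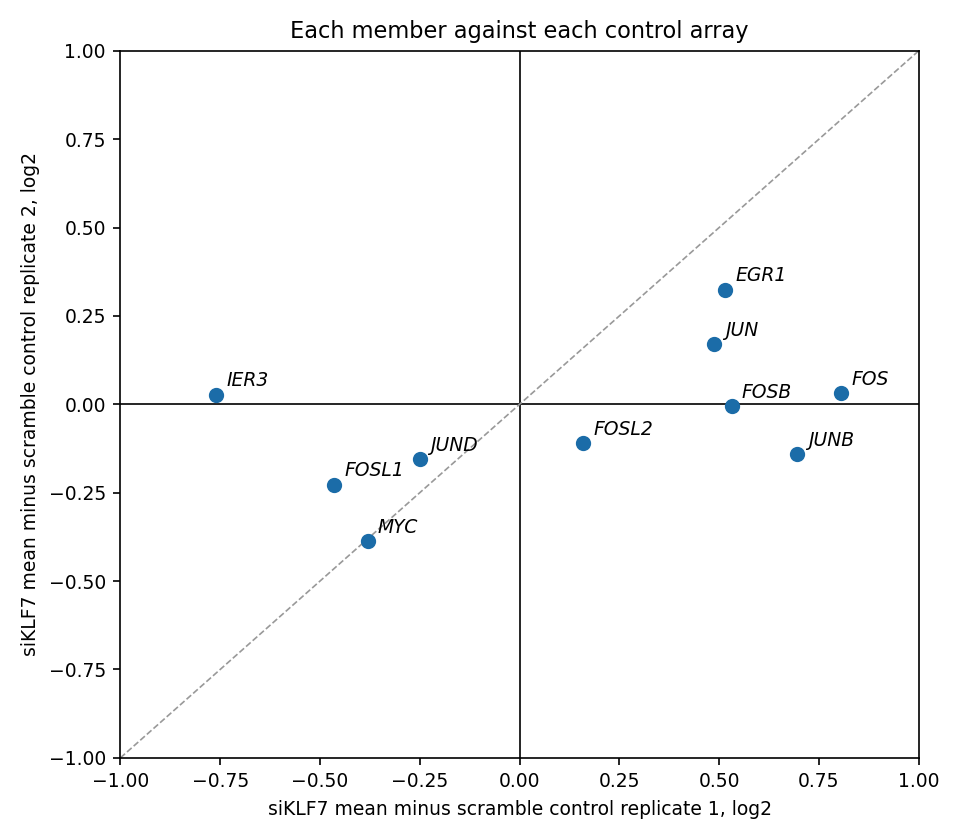
Mean siKLF7 level minus scramble control replicate 1 (horizontal axis, log2) against the same mean minus scramble control replicate 2 (vertical axis, log2); each point is a gene and the dashed line marks equal differences. MYC lies on the line at -0.38 and -0.39, EGR1 and JUN are positive against both arrays, and FOS, FOSB, JUNB and IER3 depart from 0 mainly against replicate 1.

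Set against each control in turn, the members depended on the control array to differing degrees. Those whose groups did not overlap, as for 45.2% of all genes, were MYC, EGR1, JUN, FOSL1 and JUND. They kept their direction against both controls. Against scramble control replicate 1 their differences were -0.38, 0.51, 0.49, -0.46 and -0.25. Against replicate 2 they were -0.39, 0.32, 0.17, -0.23 and -0.15, smaller for all of them but MYC. FOS, FOSB, JUNB and IER3 stood at 0.80, 0.53, 0.70 and -0.76 against replicate 1 but at 0.03, -0.005, -0.14 and 0.03 against replicate 2. FOSL2 stood at 0.16 and -0.11. For FOS, FOSB, JUNB and IER3 the gap between the controls was -0.77, -0.54, -0.84 and 0.79, replicate 1 minus replicate 2, and for MYC it was -0.01. The siKLF7 arrays differed from each other by at most 0.30 for any member, in FOSB.

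**Figure D3:**
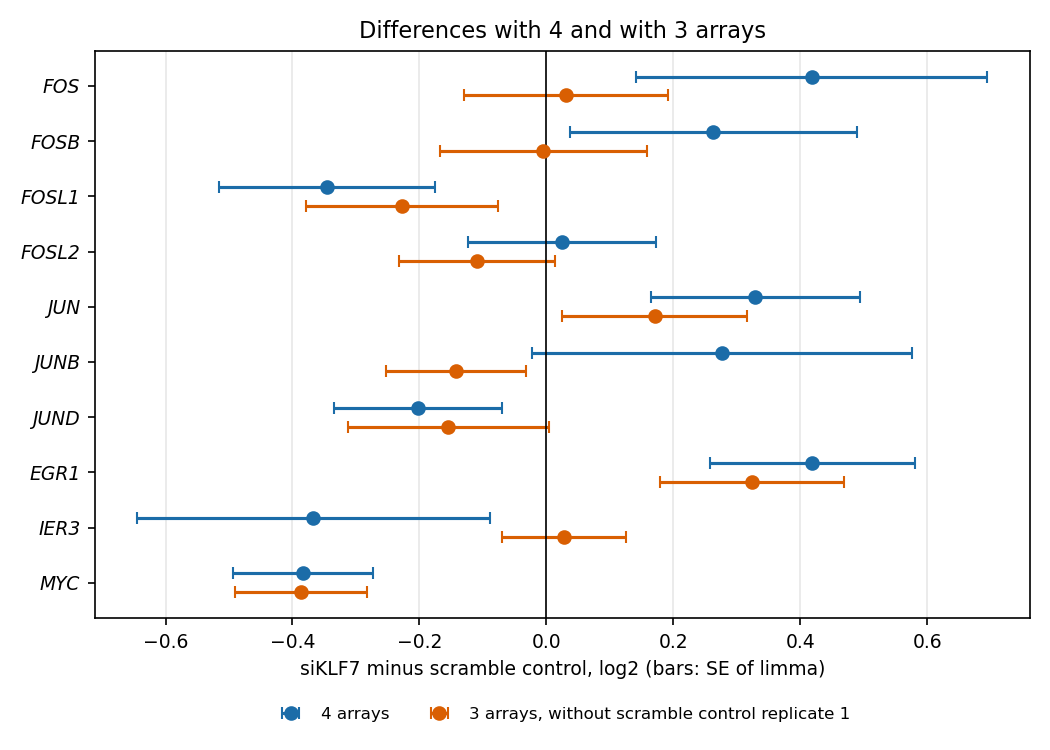
Difference of each member, siKLF7 minus scramble control in log2 units, with 4 arrays (blue) and with 3 arrays, without scramble control replicate 1 (orange); bars are the standard error of limma. The MYC points coincide at -0.38 and -0.39, while FOS, FOSB, JUNB and IER3 move to within 0.15 of 0 with 3 arrays.

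The genes with the most similar pattern over the 4 arrays were sought for the 3 members with the largest moderated statistic, MYC, EGR1 and FOSL1, by the Euclidean distance between centred log2 values. For MYC they were JAKMIP1, PCDHB2 and LOC401191, each at a distance of 0.03. For EGR1 they were the linker histone gene H1-5 (0.05), KRT9 (0.05) and LEO1 (0.06), and for FOSL1 CYSLTR2 (0.02), GDF2 (0.03) and CAMKV (0.03). With so few arrays a close match is easily met among 18417 genes, and none of these 9 genes passed with 3 arrays.

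Other genes of these pathways were taken from lists written for this work, 157 of 176 list entries being matched. The lists were chosen with earlier results of these data known, so their counts beside those of all genes are only descriptive. SRF and ELK1, which bind the CArG box and a site beside it in several immediate early promoters, both fell with 3 arrays. SRF, serum response factor, had signals of 1239 and 1476 in the controls and 1046 and 1018 in the siKLF7 arrays, all of the latter below the former. It fell by 0.51 (SE 0.14, limma's adjusted p = 0.039) with 3 arrays and stood at -0.38 with 4. ELK1, an ERK-activated partner of serum response factor, had signals of 582 and 579 in the controls and 385 and 376 in the siKLF7 arrays. It fell by 0.59 (SE 0.16, limma's adjusted p = 0.037) with 3 arrays and stood at -0.59 with 4. Both 3-array calls were lost when the prior did not follow intensity (adjusted p = 0.14 and 0.065). Against scramble control replicate 1 alone SRF stood at -0.26 and did not pass, while ELK1 stood at -0.59. EGR1, whose window holds the CArG boxes printed above, lay above both controls in the siKLF7 arrays but did not pass with 4 or with 3 arrays. Whether its level was related to that of SRF or ELK1 was not tested.

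In the list of ERK and JNK signalling, ELK1 was the only gene that passed with 3 arrays. EGFR, the receptor for EGF family ligands, stood at -0.15 with 3 arrays and -0.29 with 4. In the list of 32 other immediate early genes, SRF was the only gene that passed with 3 arrays. MCL1, an anti-apoptotic factor, stood at -0.40 (SE 0.12) with 3 arrays and -0.41 with 4, and did not pass in either fit. With the 3 arrays it stood at -0.42 with quantile normalization and -0.37 with median centring. It stood at -0.40 with a pseudocount of 1 and also without the intensity trend. Whether it passed depended on the setting. Against scramble control replicate 1 alone it stood at -0.42. EGR4 stood at -0.29 and -0.30. The growth arrest gene GADD45A stood at -0.44 and -0.27, and the ERK phosphatase gene DUSP1 at -0.38 and 0.14. Of the 32, 5 lay above and 9 below both controls, shares near the 16.3% and 28.9% of all genes. For other AP-1 and bZIP partners, 0 of 12 passed with 3 arrays and 3 had an unadjusted p under 0.05, against 11.3% of all genes. ATF3, a stress-induced factor, stood at -0.48 with 3 arrays and -0.13 with 4, BATF3 at -0.37 and -0.25, and MAF at 0.27 and 0.44.

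Genes that ERK signalling induces, with the EGF receptor ligands, had 2 of 15 that fell and 0 that rose with 3 arrays, where 0.69% of all genes fell and 0.885% rose. Both are ligands of the EGF receptor family and not feedback inhibitors. TGFA stood at 1008 and 760.2 in the controls and 497 and 388 in the siKLF7 arrays, and fell by 0.77 (SE 0.16, limma's adjusted p = 0.0019). EREG, epiregulin, stood at 2886 and 669.9 in the controls and 333 and 354 in the siKLF7 arrays, and fell by 0.93 (SE 0.16, limma's adjusted p = 6.3e-05). With 4 arrays the differences were -0.97 and -1.97, and neither passed. SPRY2, an inhibitor of receptor kinase signalling, stood at 0.46 with 3 arrays and 0.83 with 4, with both siKLF7 arrays above both controls. It did not pass in either fit. With the 3 arrays it stood at 0.45 with quantile normalization, 0.49 with median centring and 0.47 with a pseudocount of 1. Whether it passed depended on the setting. Against scramble control replicate 1 alone it stood at 1.20.

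Around MYC, SKP2 was the only gene of its network and turnover that passed with 3 arrays. SKP2, a ubiquitin ligase subunit that targets the cell cycle inhibitor p27 and also MYC, had signals of 3796.5 and 3338 in the controls and 2021 and 2249 in the siKLF7 arrays. It fell by 0.64 (SE 0.11, limma's adjusted p = 9.1e-05) with 3 arrays and stood at -0.74 with 4. MAX, the DNA-binding partner of MYC, stood at -0.23 and -0.27, and FBXW7, a ubiquitin ligase subunit that degrades MYC, at 0.29 and 0.33. Among MYC targets 0 of 22 passed with 3 arrays, 2 had an unadjusted p under 0.05 (11.3% of all genes did), and 8 lay above and 5 below both controls, where 16.3% and 28.9% of all genes did. Their median was 0.09 with 3 arrays and 0.04 with 4, above that of all genes. SRM, spermidine synthase, stood at -0.32 and -0.26 and the nucleolar protein gene NOLC1 at -0.29 and -0.47, while CDK4 stood at 0.18 and 0.28 and NCL, nucleolin, at 0.20 and 0.16.

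**Figure D4:**
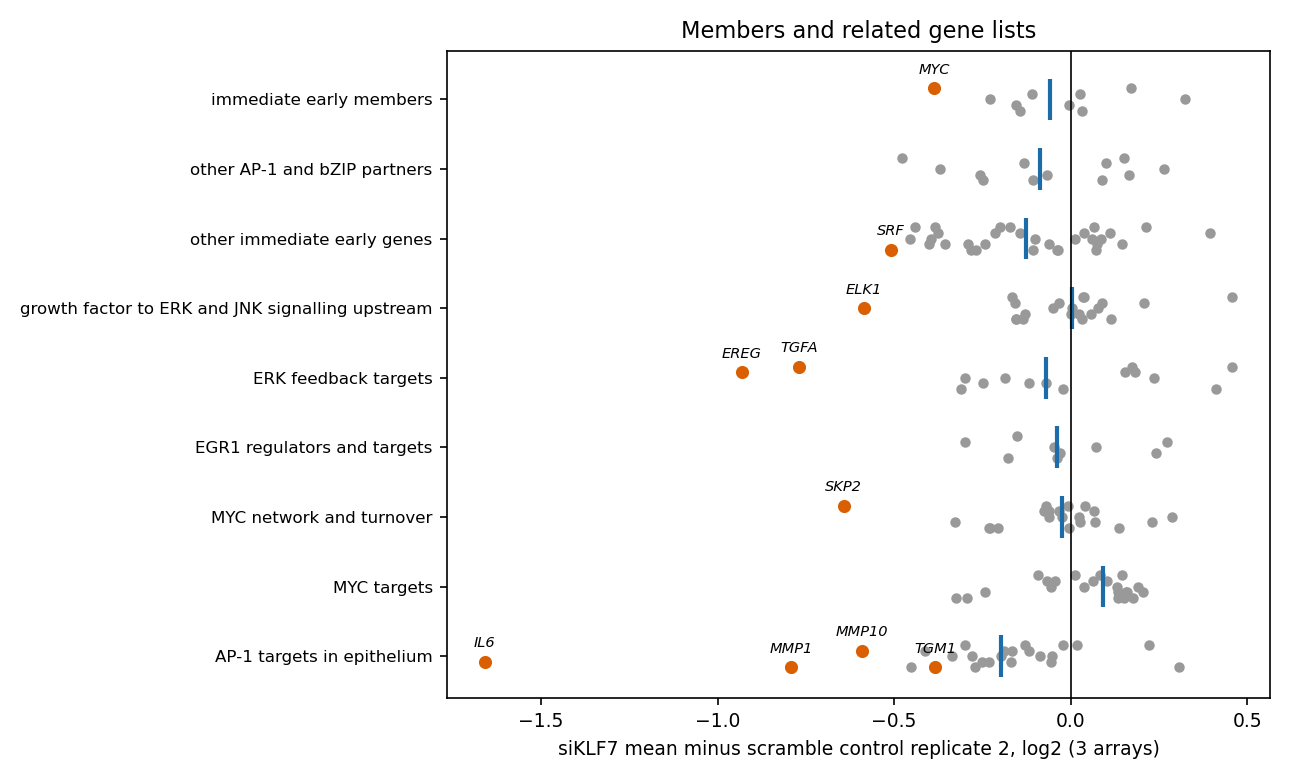
Difference of every gene in the members and the related lists, siKLF7 mean minus scramble control replicate 2 in log2 units with 3 arrays; orange points passed limma's adjusted threshold, grey points did not, and blue bars are list medians. All orange points lie below 0, with IL6 farthest at -1.66 and MYC the only member among them.

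The list of AP-1 targets in epithelium held the most calls, with 4 of 25 that fell and 0 that rose with 3 arrays, against 0.69% of all genes that fell. Of the 25, 12 lay below both controls and 0 above, where 28.9% and 16.3% of all genes did. Because the list was chosen with earlier results of these data known, these counts cannot show enrichment, which was not tested. The list median was -0.20 with 3 arrays and -0.26 with 4. IL6, an inflammatory cytokine, stood at 1326 and 611 in the controls and 187 and 177 in the siKLF7 arrays, and its 3-array fall of 1.66 is also the largest in these lists. MMP1, an interstitial collagenase, stood at 3436 and 271 in the controls and 144 and 156 in the siKLF7 arrays. It fell by 0.79 (SE 0.16, limma's adjusted p = 0.00089) with 3 arrays and differed by -2.58 with 4, most of which came from scramble control replicate 1. MMP10, stromelysin 2, stood at 241 and 134 in the controls and 87.0 and 80.1 in the siKLF7 arrays, and fell by 0.59 (SE 0.16, limma's adjusted p = 0.033); that call was lost with quantile normalization, with median centring and without the intensity trend of the 3 arrays (adjusted p = 0.062, 0.055 and 0.063). TGM1, the keratinocyte transglutaminase, stood at 495 and 5323 in the controls and 3972 and 4185 in the siKLF7 arrays, and fell by 0.38 (SE 0.09, limma's adjusted p = 0.0072) with 3 arrays but stood at 1.31 with 4, since scramble control replicate 1 lay far below; the 3-array call was lost without the intensity trend (adjusted p = 0.33). CXCL8, a neutrophil chemokine, stood at -0.33 and -0.52 and did not pass. Among regulators and targets of EGR1, 0 of 9 passed with 3 arrays and 0 had an unadjusted p under 0.05. The EGR1 co-repressor genes NAB1 and NAB2 stood at -0.18 and 0.24, with both siKLF7 arrays below and above both controls respectively, and ICAM1 at -0.30 with 3 arrays and -1.40 with 4.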

How the data were processed

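Total RNA of 2 scramble control and 2 siKLF7 samples was measured on arrays, and groups and replicate numbers came from the sample titles. The authors deposited array intensity values on a linear scale, for which the submitters' processing notes name PLIER 2.0 and Affymetrix Expression Console 1.1.1; the sources used here do not state any normalization between arrays. Of 33297 features, 19460 had 1 gene symbol in the platform annotation, 1754 had several and 12083 had none listed. The feature with the highest mean log2 value was kept per gene, which left 18417 genes, 769 of them with several features. Signals are printed on the linear scale; differences are of log2(signal + 16).

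Differences were fitted using lmFit, then eBayes with a prior that follows intensity (limma 3.58.1, R 4.3.3) on 4 arrays (2 residual and 2.63 prior degrees of freedom) and without scramble control replicate 1 (1 and 74.2), with Benjamini-Hochberg adjustment over all genes at 0.05. The number of arrays limits the precision. Both fits were also run on simulated arrays that all varied alike. This checks the code and cannot show how the fits behave when an array stands apart or a lone control varies differently. The members and lists were chosen with earlier results of these data known. Named genes were the members, KLF7, and from each list up to 4 genes with the smallest limma p in either fit and any that passed; marker lists and keratins served to check the cell label. Promoters came from RefSeq (GRCh38.p14), 1 per gene. Alternatives left out each array in turn, added a replicate block, used quantile normalization or median centring, pseudocounts of 1 and 32, or no intensity trend, dropped the dimmest 25% or 50% of genes, averaged a gene's features, or called at an adjusted p of 0.10. Matplotlib 3.10.9 drew the figures.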

Additional observations from a re-analysis of the deposited data

How the results depend on the processing

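MYC, EGR1, JUN, FOSL1 and JUND kept their direction under all 18 alternatives, and FOS under the 17 that could be computed for it. For MYC, EGR1, JUN, FOSL1 and JUND, leaving out an array could not reverse the direction, because their groups did not overlap. The replicate block, the dim filters, the averaging of features, the fit without trend and the looser threshold left these differences unchanged by construction. The values ranged from -0.44 to -0.32 for MYC, 0.30 to 0.54 for EGR1, 0.15 to 0.49 for JUN, -0.47 to -0.19 for FOSL1 and -0.25 to -0.12 for JUND. For FOS, whose groups overlapped, they ranged from 0.03 to 0.80. The low end for FOS, near 0, came without scramble control replicate 1. On leaving out each array in turn, the difference ranged from -0.0048 to 0.53 for FOSB, -0.11 to 0.16 for FOSL2, -0.14 to 0.70 for JUNB and -0.76 to 0.028 for IER3. The low end for FOSB, FOSL2 and JUNB and the high end for IER3 came without scramble control replicate 1. That setting was also combined, after seeing the data, with quantile normalization, median centring, a pseudocount of 1 and no intensity trend. FOSL2 was then -0.12, -0.076, -0.11 and -0.11, JUNB was -0.16, -0.11, -0.14 and -0.14, and IER3 was 0.0095, 0.061, 0.028 and 0.028, in that order. FOSB was 0.077, 0.028, -0.0063 and -0.0048. The cause was not tested.

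Leaving out each array in turn, the count of all genes that passed ranged from 0 to 4935, and that of members from 0 to 8. Without scramble control replicate 1, the counts of all genes were 484 with quantile normalization, 419 with median centring, 281 with a pseudocount of 1 and 172 without the trend, beside 290 with none of these; the counts of members were 1, 1, 1 and 0. With 4 arrays, 0 genes passed in limma under any setting, and 357 to 1069 had an unadjusted p under 0.05.

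The members' median ranged from -0.057 to 0.32 on leaving out each array. List medians then ranged from -0.087 to 0.017 for AP-1 and bZIP partners, -0.13 to 0.036 for other immediate early genes, -0.21 to 0.0042 for ERK and JNK signalling, -0.12 to -0.070 for ERK-induced genes, -0.38 to -0.038 for EGR1 regulators and targets, -0.024 to 0.079 for the MYC network, 0.028 to 0.093 for MYC targets and -0.26 to -0.20 for AP-1 targets. Without the dimmest 50% of genes, where FOS and FOSB were not tested, the median was -0.089 for the members, -0.025 for AP-1 and bZIP partners, 0.047 for the MYC network and -0.11 for AP-1 targets. With quantile normalization it was -0.13 for ERK-induced genes.

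The replicate number as a block left every difference as it was and 0 genes passed in limma (680 at an unadjusted p under 0.05); MYC had an adjusted p of 0.73. Same-numbered arrays did not deviate together from their group means (r = -0.041 across genes, which are not independent). Because scramble control replicate 1 stood apart, this r cannot decide whether the numbers mark pairs. The main fits did not treat them as pairs.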
